A study of Arabidopsis thaliana with 25 samples.

Results

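SPT16 is the larger subunit of FACT, a histone chaperone that takes nucleosomes apart in front of transcribing RNA polymerase II (RNAPII) and helps to rebuild them behind it. Its partner in the complex is SSRP1. The carboxy-terminal domain of RNAPII carries phosphate at serine 5 (S5P) mainly early in transcription and at serine 2 (S2P) mainly during productive elongation. The data described here are the 7394 summits of a deposited list of SPT16 chromatin immunoprecipitation (ChIP) peaks called over RNAPII S5P ChIP, out of 30216 summits in the 8 lists of the series. All 7394 were used.

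The libraries came from Arabidopsis thaliana Col-0 seedlings grown with 16 h of light at 21 °C and 8 h of darkness at 18 °C. By the labels, 4 SPT16 and 2 RNAPII S5P libraries stand behind the list, and the peak names in it read as SPT16 peaks over S5P, so the SPT16 libraries were taken as the treatment and the S5P libraries as the control. A summit then marks a place where SPT16 exceeded S5P RNAPII, not where SPT16 was most abundant. All samples share a protocol text that mentions heat at 44 °C for 10 min, but the labels do not mark any sample as heated. Per the labels' protocols, elongation factors were precipitated with antibodies against recombinant domains. Neither the age of the seedlings nor whether libraries came from separate cultures is stated in the labels.

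The list pools its libraries and has no column per library, so no value below has a replicate error and none was tested across libraries. Depth is unknown. The score of a summit is the authors' own, the −log10 of the peak caller's q-value, and is used only within a list. Shares carry exact Clopper-Pearson 95% intervals, which cover counting error in a list only. Positions are TAIR10 positions counted from 1. Genes are the 27444 protein-coding nuclear genes of the RefSeq table for TAIR10.1. That table holds no strand and no exons, so gene ends could not be told apart as 5′ or 3′, and exons and introns were not analysed here.

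Summits were put in 3 classes by place. Interior summits lie inside a gene and more than 200 bp from every gene end. Gene-end summits lie within 200 bp of an end, inside or outside the gene. Remote summits are the rest. There were 4677 interior summits, 63.3% of the list (95% interval 62.1 to 64.4), 2381 gene-end summits, 32.2% (31.1 to 33.3), and 336 remote summits, 4.54% (4.08 to 5.04). Both main classes were present at similar shares on every chromosome: across the 5 chromosomes, interior summits made up 60.9% to 65.5% and gene-end summits 30.7% to 33.7%.

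The 2 main classes formed separate groups along the distance to the nearest gene end. Gene-end summits had a median distance of 56 bp, and 75.1% of them (73.3 to 76.8) lay within 100 bp. Interior summits were most frequent between 301 and 400 bp from an end, where 18.0% of them fell (16.9 to 19.1), and 15.7% fell between 401 and 500 bp. Between these groups the list thinned out: bins of 50 bp inside genes held 593 summits at 0 to 49 bp, 169 at 150 to 199 bp and 437 at 350 to 399 bp. Just within the limit of 200 bp, at 151 to 200 bp, there were 225 summits with a median score of 4.55, and just beyond it, at 201 to 250 bp, there were 279 with a median score of 4.96.

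**Figure D1:**
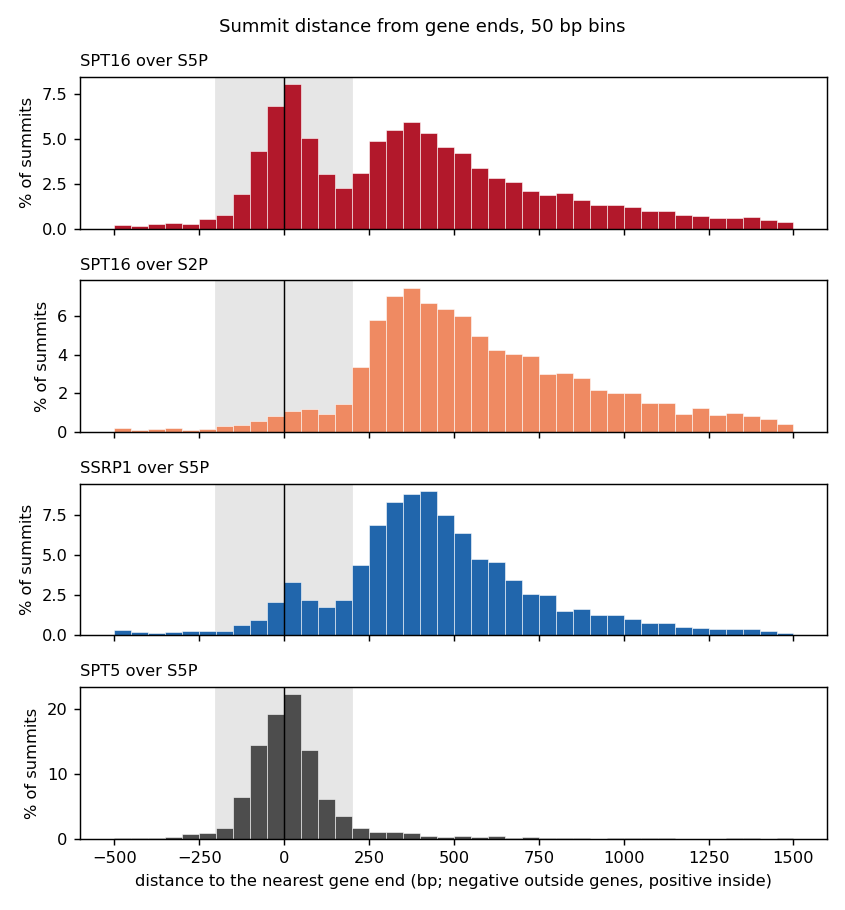
Share of each list's summits (y axis, %) in 50 bp bins of the distance to the nearest gene end (x axis, bp; negative outside genes, positive inside), for SPT16 over S5P and the 3 most similar lists, each panel with its own y scale. Grey marks the 200 bp window; SPT16 over S5P shows a group at the gene end, 8.02% of summits at 0 to 49 bp inside, and another around 350 to 399 bp, with 5.91%.

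Taken as whole classes, gene ends held summits more densely than gene interiors. The gene-end windows cover 16.0% of the bases between the first and last genes of the chromosomes and held 125 summits per Mb. Gene interiors cover 44.6% and held 88.0 per Mb, and remote sequence covers 39.4% and held 7.16 per Mb. The interior value is a mean over uneven ground, as the distances above show. In SPT16 over S2P the order was the reverse, with 111 per Mb in interiors and, at gene ends, 27.6 inside and 17.5 outside genes. It was also the reverse in SSRP1 over S5P (64.6, 35.0 and 21.4), but the same in SPT5 over S5P (4.40, 117 and 158).

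The gene-end share lay between those of the other lists. For SPT16 over S5P, 32.2% of summits were at gene ends (31.1 to 33.3). Among the lists that share its libraries, the share was 6.83% for SPT16 over S2P (6.23 to 7.46) and 13.4% for SSRP1 over S5P (12.4 to 14.5). It was 87.4% for SPT5 over S5P (86.1 to 88.6) and 6.49% for ELF7 over S5P (4.78 to 8.59), the last from 693 summits. SPT5 is an elongation factor bound to RNAPII itself. In the order SPT16 over S5P, SPT16 over S2P, SSRP1 over S5P, SPT5 over S5P and ELF7 over S5P, the interior share was 63.3%, 89.3%, 81.8%, 8.02% and 92.6%. The intervals of SPT16 over S5P for these 2 classes overlap none of the others, but they cover counting error only; each of these lists shares SPT16 or S5P libraries with SPT16 over S5P, and differences between them were not tested across libraries.

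**Figure D2:**
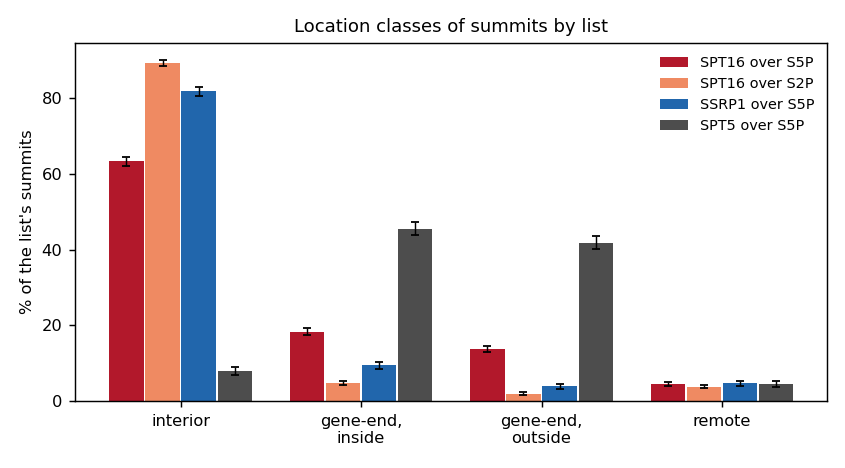
Share of each list's summits (y axis, %) in each location class (x axis), with exact 95% intervals for counting error as bars. SPT16 over S5P has 18.4% of its summits at gene ends inside genes and 13.8% just outside, between the FACT lists and SPT5 over S5P.

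Interior summits marked 3753 genes, 13.7% of all protein-coding genes. Of these genes, 2984 (79.5%) had 1 interior summit, 616 (16.4%) had 2 and 153 (4.08%) had 3 or more. Neighbouring interior summits of a gene were a median of 782 bp apart (quartiles 531 and 1151 bp). The share of genes with an interior summit was 3.98% among genes under 1000 bp, 13.0% at 1000 to 1999 bp, 16.6% at 2000 to 2999 bp, 18.0% at 3000 to 4999 bp and 15.6% from 5000 bp up. Genes with interior summits had a median length of 2413 bp, against 2078 bp for all genes.

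The highest score of the whole list was an interior one, 61.5 at position 13447063 on chromosome 2 in AT2G31590, 234 bp from a gene end. It stood well above the other interior scores. AT5G43020 scored 30.0 at position 17256888 on chromosome 5, 1189 bp from an end. EMF1, which keeps flowering genes silent with Polycomb proteins, also scored 30.0, at position 3696110 on chromosome 5 and 318 bp from an end. LGT8, a putative galacturonosyltransferase gene, scored 29.0 at 316 bp from an end.

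GRP7, whose RNA-binding protein is part of a feedback loop driven by the circadian clock, scored 28.5 at position 9265951 on chromosome 2, 606 bp from an end. CP29, which encodes a chloroplast RNA-binding protein, scored 25.9 at position 19821048 on chromosome 3, 471 bp from an end. The remaining genes of the leading 12 carry no symbol in the table: AT3G22550 (28.7), AT3G47800 (28.4), AT4G04320 (26.0), AT5G11550 (25.9), AT1G12020 (25.9) and AT3G61028 (25.5). Of these 12 genes, AT3G47800 and AT5G11550 also had a gene-end summit. An SSRP1 summit, over S5P or S2P, lay within 100 bp of 10 of the 12, all but GRP7 and CP29. The same count was 12 of 12 for the leading gene-end summits described below. With SSRP1 over S2P alone, which shares no library with this list, the interior count was again 10 of 12. The gene-end summits of AT2G35470, iqd21, AT2G31810, GSA2, ALDH2B4 and AT4G19400 then had none nearby. SSRP1 over S5P shares the S5P libraries with this list, so these counts are not independent. The share over all summits was not computed for both SSRP1 lists together. For SSRP1 over S2P alone it was 38.7% of interior and 4.33% of gene-end summits. The interior summits of all 12 genes lay 234 to 1189 bp from the nearer end of their gene.

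Gene-end summits marked 3007 genes, 11.0% of all protein-coding genes. Most of them, 2958 (98.4%), had 1 gene-end summit and 49 (1.63%) had 2, so most could hardly be marked at more than 1 end. In 54 genes (1.80%, 1.35 to 2.34) both ends had a summit within 200 bp, which in a short gene can be the same summit. The marked share depended less on length than that of interior summits, at 5.96% under 1000 bp, 10.3%, 12.02% and 13.5% in the following length classes, and 14.5% from 5000 bp up. Their genes had a median length of 2309 bp. Because ends of neighbouring genes can be close together, 668 gene-end summits (28.1%, 26.3 to 29.9) lay within 200 bp of ends of 2 or more genes and were counted for each.

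Of the gene-end summits, 1359 lay inside and 1022 outside a gene (42.9% outside, 40.9 to 44.9). The outside summits scored higher, with a median of 5.35 (quartiles 3.75 and 7.30), and the inside ones had a median of 4.49 (3.26 and 6.38). Interior summits had a median of 4.63 (3.36 and 6.73). The share of outside gene-end summits was 9.84% among scores from 2 to 3, 12.1% from 3 to 5, 17.56% from 5 to 10 and 13.1% from 10 to 20. Of the 38 summits that scored 20 or more, 31 were interior, 3 at gene ends and 4 remote. The gaps between genes that held outside summits had a median length of 770.5 bp, against 877 bp for all 23810 gaps, and 28.6% of these summits (25.8 to 31.4) lay in gaps of at most 400 bp, against 31.9% of all gaps.

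The leading gene-end summits lay just outside genes, as did 6 of the top 12. The highest, 42.5, was at position 25195086 on chromosome 5, 15 bp outside AT5G62720, and was the second score of the list. The next, 33.2 at position 2060387 on chromosome 5, lay 48 bp outside WCRKC1, a thioredoxin gene. AT1G56290 followed with 20.8 at 41 bp inside an end, a summit that also lies in the overlapping gene AT1G56300. AT2G35470 (18.8) and AT2G31810 (16.6) had theirs 30 and 23 bp outside.

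Several leading gene-end genes have known roles. AP1, a MADS-box gene of floral identity, scored 17.2 at position 25986299 on chromosome 1, 50 bp inside an end. GSA2, an enzyme gene of chlorophyll and haem precursor synthesis, scored 16.2 at 18 bp outside, and ALDH2B4, a mitochondrial aldehyde dehydrogenase gene, 16.1 at 11 bp outside. The calmodulin-binding family gene iqd21 scored 18.1 at 60 bp inside and had 4 interior summits besides. AT1G45165 (16.3) and AT4G35485 (16.0) are genes of 532 and 496 bp that overlap larger genes in whose interior the summit lies; AT4G35485 overlaps RHA3B. AT4G19400 (15.9) had its summit 47 bp inside. Such ambiguous cases were common: 187 of the 1359 inside summits (13.8%) lay near the end of a gene while inside another gene whose own ends were farther away.

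Genes that carried both kinds of summit mostly carried them at opposite sides. There were 993 such genes, 26.5% of the genes with an interior summit (25.1 to 27.9) and 33.0% of those with a gene-end summit (31.3 to 34.7). Of the 970 that were at least 1000 bp long, 835 (86.1%, 83.7 to 88.2) had the strongest interior summit beyond the gene centre as seen from the strongest gene-end summit. The interior summit stood a median of 1763.5 bp from the end that carried the gene-end summit and 507.5 bp from the other end, in genes with a median length of 2447.5 bp.

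The distance to the other end varied less with gene length than the distance to the end with the strongest gene-end summit, here called the marked end. The other end was not required to lack a summit, and 54 of the 3007 gene-end genes had both ends marked. The median distance to the other end was 473 bp in genes of 1000 to 1999 bp, 497 bp at 2000 to 2999 bp, 550.5 bp at 3000 to 4999 bp and 571 bp from 5000 bp up. To the marked end it was 1020, 1854, 2891.5 and 4983.5 bp in the same classes. The share of genes with opposite sides was 81.2%, 88.1%, 90.3% and 82.4% in these classes. It was 86.8% (83.8 to 89.4) when only gene-end summits that concern 1 gene were used, a choice made after the data were seen.

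**Figure D3:**
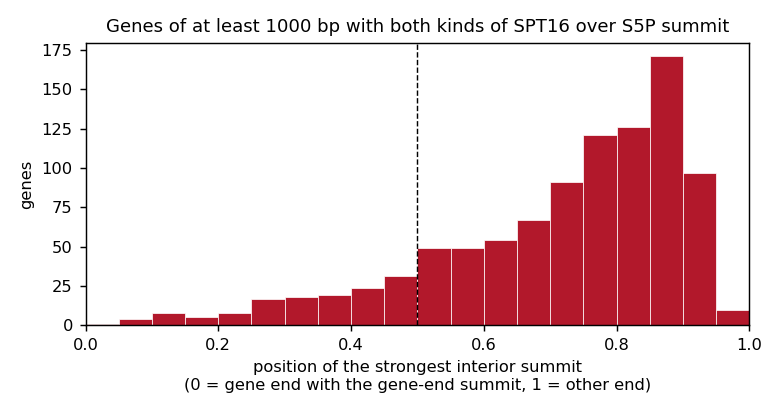
Number of genes (y axis) by the relative position of the strongest interior summit (x axis, 0 at the end with the gene-end summit, 1 at the other end) in the 970 genes of at least 1000 bp with both kinds. The dashed line is the gene centre; 835 genes lie beyond it, and the fullest bin, 0.85 to 0.9, holds 171.

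The 5 genes in which both scores were high show the arrangement. SNRK2.2, a kinase gene of abscisic acid signalling, had a gene-end score of 14.5 at position 18741467 on chromosome 3, 23 bp inside, and an interior score of 16.7 at position 18743807, 367 bp from the other end. AGL20, also known as SOC1, a MADS-box gene that promotes flowering, scored 13.1 at 25 bp outside an end and 14.5 inside the gene at 489 bp from the other end. SGT1A, a co-chaperone gene of plant immunity, scored 13.0 at 99 bp inside an end and 14.2 at 432 bp from the other. AT4G04630 scored 13.1 at 135 bp outside and 12.03 at 461 bp from the other end. NDF5, of the chloroplast NDH complex pathway, scored 11.9 at 9 bp inside and 12.3 at 1300 bp from the other end. In all 5 genes the interior summit lay on the opposite side; NDF5, with its interior summit near the centre of a gene of 2682 bp, did so by a small margin.

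Long genes could hold rows of summits. SEX1, which encodes the glucan water dikinase of starch breakdown, held the most, 9 summits inside a gene of 10099 bp: 1 at a gene end, at 17 bp with a score of 6.32, and 8 interior ones scoring 2.06 to 7.58. BLH4, a BELL homeodomain gene, AT3G14840, ABCB19, an auxin transporter gene, and BGAL2, a beta-galactosidase gene, held 6 each inside the gene. AT3G14840 and BGAL2 had all 6 in the interior and a gene-end summit outside. In ABCB19 the gene-end summit scored 2.89 at 11 bp, and the highest of its 5 interior scores, 9.56, stood 417 bp from the opposite end.

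SSRP1 and ELF7 summits over S2P, from lists that share no library with SPT16 over S5P, were found more often beside interior than beside gene-end summits. Both lists are themselves mostly interior, with 92.1% and 95.6% of their summits, so this order is partly set by their make-up. Within 100 bp of a summit of SPT16 over S5P there was an SSRP1 summit over S2P for 1812 of 4677 interior summits (38.7%, 37.3 to 40.2) and for 103 of 2381 gene-end summits (4.33%, 3.54 to 5.22). Seen from the other list, 33.2% of the 5451 SSRP1 summits over S2P had an interior and 1.89% a gene-end summit that near. That list has 242 gene-end summits of its own (4.44%), which bounds the overlap it can show there. Gene-end summits outside genes had an SSRP1 summit nearby in 2.15% of cases (1.35 to 3.24), and those inside in 5.96% (4.76 to 7.35).

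ELF7, the PAF1 subunit of the PAF1 complex that travels with elongating RNAPII, showed the same order. Its summits over S2P lay within 100 bp of 11.9% of interior (11.0 to 12.9) and 1.18% of gene-end summits (0.783 to 1.70), or, of its own 2687 summits, 20.8% and 1.04%. SPT5 over S2P, a list of 298 summits, was near 1.48% of interior (1.15 to 1.86) and 1.05% of gene-end summits (0.681 to 1.55), intervals that overlap. Interior summits with an SSRP1 summit over S2P nearby had a median score of 6.03, and those without had 4.08. For gene-end summits these medians were 6.22 and 4.81.

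**Figure D4:**
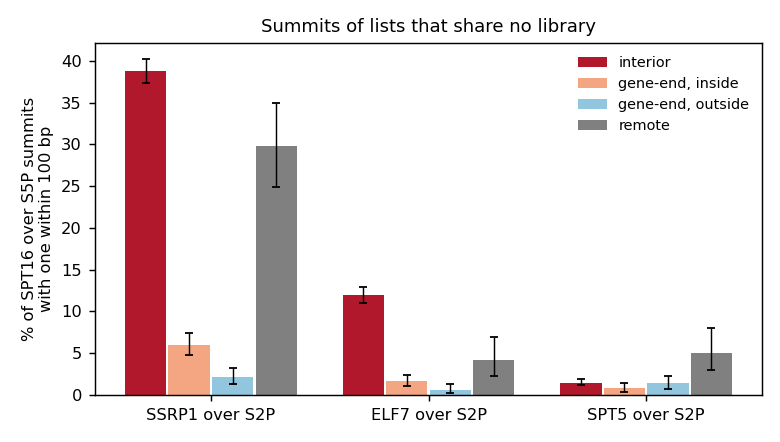
Share of SPT16 over S5P summits (y axis, %) of each class with a summit of SSRP1, ELF7 or SPT5 over S2P (x axis) within 100 bp, with exact 95% intervals for counting error. For SSRP1 the interior share is 38.7% and the gene-end shares are 5.96% inside and 2.15% outside genes.

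SPT16 over S2P, called from the same SPT16 libraries over the other RNAPII form and therefore not independent, had a summit within 100 bp of 71.5% of interior summits (70.2 to 72.8) and 12.5% of gene-end summits (11.2 to 13.9). Of its own 6578 summits, 50.8% had an interior and 4.56% a gene-end summit of the S5P list that near. At AT2G31590, EMF1 and GRP7 its scores were 53.8, 47.9 and 49.8 on its own scale, which is not comparable between lists. It had a summit within 100 bp of all 12 leading interior summits and of 8 of the 12 leading gene-end summits, among them those of AT5G62720, WCRKC1 and AP1. The 4 without were those of iqd21, AT2G31810, GSA2 and ALDH2B4.

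The opposite arrangement was also seen between lists without a common library. In 1067 genes of at least 1000 bp with a gene-end summit of SPT16 over S5P and an interior summit of SSRP1 over S2P, the strongest of each stood on opposite sides of the centre in 960 (90.0%, 88.0 to 91.7). The SSRP1 summit was a median of 486 bp from the end opposite the strongest SPT16 gene-end summit. With ELF7 over S2P, 411 of 606 genes had opposite sides (67.8%, 63.9 to 71.5), at a median of 913.5 bp from that end, and with SPT5 over S2P 56 of 60 (93.3%, 83.8 to 98.2). Of the genes with only a gene-end summit, 18.17% held an SSRP1 summit over S2P (16.5 to 19.9), against 81.2% of those with only interior summits (79.6 to 82.6) and 17.38% of all genes.

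Counts by gene group were read against 13.7% of all genes with an interior and 11.0% with a gene-end summit, and no group was tested. Cell wall genes leaned to the interior: 22 of 36 (61.1%, 43.5 to 76.9) had an interior and 4 (11.1%, 3.11 to 26.1) a gene-end summit. XTH4 and XTH9, genes of xyloglucan-modifying enzymes, scored 23.4 and 23.3 at 534 and 798 bp from an end, FLA8, for an arabinogalactan protein, 9.32 and EXPA6, for an expansin that loosens walls, 9.22. All 4 gene-end genes of this group, FLA7 (7.57), FLA8 (9.04), FLA9 (3.53) and CESA5 (5.10), also had an interior summit, on the opposite side. In FLA9 that summit was at the centre, 581 bp from the unmarked end of a gene of 1164 bp.

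Rapid stress response genes had interior summits in 26 of 53 cases (49.1%, 35.1 to 63.2) and gene-end summits in 8 (15.1%, 6.75 to 27.6). The leading interior scores were 14.7 for ERF6, an ethylene response factor gene, 13.9 for OPR3, of jasmonate biosynthesis, 13.1 for ERF13 and 12.6 for CML38, a calmodulin-like gene. The jasmonate repressor gene TIFY10B, also known as JAZ2, led the gene-end summits with 11.4 at 99 bp outside, followed by ERF104 (5.29), WRKY33 (5.09) and ERF5 (3.54).

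Auxin response genes had 16 of 37 with an interior (43.2%, 27.1 to 60.5) and 5 with a gene-end summit (13.5%, 4.54 to 28.8). ARF6, an auxin response factor gene, scored 16.5 and IAA7, a repressor gene, 12.01 in the interior. IAA8, another repressor gene, had no interior summit but a gene-end score of 15.5 at position 9638756 on chromosome 2, 5 bp inside an end. Clock genes had 10 of 30 with an interior (33.3%, 17.3 to 52.8) and 4 with a gene-end summit (13.3%, 3.76 to 30.7). GI, a large clock protein gene, had 3 interior summits, the highest 6.42, and a gene-end score of 14.0 at position 8067694 on chromosome 1. That summit lay 96 bp inside GI and also 170 bp outside PFL, a ribosomal protein gene, and was counted for both. FKF1, a blue-light receptor gene, scored 12.8 at 179 bp inside an end, and TOC1, a core clock repressor gene, 9.04 at 27 bp outside and 10.1 in the interior.

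Cytosolic ribosomal protein genes were picked by name, so the group may lack members of the family and may still hold organellar ones. The group carried both kinds. Of 29 found by name, 14 had an interior (48.3%, 29.4 to 67.5) and 12 a gene-end summit (41.4%, 23.52 to 61.1), whose strongest lay outside the gene in 8. The leading gene-end scores besides PFL were 7.86 for ATL5, 7.56 for AT2G36170 and 6.75 for RPL23AB, and the leading interior ones 8.96 for RPL27AB and 7.86 for RPS6. The group called housekeeping held only tubulin, actin, ubiquitin and GAPC genes, so its shares stand for these families. It had 20 of 33 with an interior (60.6%, 42.1 to 77.1) and 11 with a gene-end summit (33.3%, 18.0 to 51.8). In 8 of the 9 that had both, the 2 stood on opposite sides. Tubulin genes were most of the genes with either kind, and all of them but TUA1 and TUB1 had an interior summit. Actin and ubiquitin genes were mixed, and GAPC1 and GAPC2 had neither kind. The group was led in the interior by the alpha-tubulin gene TUA3 (12.6), UBQ1 (11.3), a ubiquitin-extension gene, and the beta-tubulin gene TUB5 (10.5). At gene ends it was led by TUB4 (8.19), TUA6 (7.50) and TUB2 (7.08).

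Core and linker histones are encoded by compact genes, whose median length here was 1109 bp. Of 33 of them, 14 had an interior (42.4%, 25.5 to 60.8) and 12 a gene-end summit (36.4%, 20.4 to 54.9), and the strongest gene-end summit lay inside the gene in 11. In a gene of 1109 bp the gene-end windows take up 400 bp of the inside. The linker histone family genes HON5 and HON4 scored 12.8 and 7.12 in the interior and 5.33 and 8.01 at an end, and the H4 gene HIS4 scored 10.6 in the interior. The H3.1 gene AT5G10400 scored 7.33 at 193 bp inside an end and HTA9, for the variant H2A.Z, 6.88 at 56 bp outside.

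Of 49 photosynthesis genes, 4 had an interior summit (8.16%, 2.27 to 19.6, an interval that includes the 13.7% of all genes), FNR1 (7.43), PSAE-2 (5.09), FNR2 (3.89) and PETC (2.17), and 0 had a gene-end summit, with an exact interval of 0 to 7.25% and a limit of 6.12% if 3 counts are taken as the most that a count of 0 allows. Heat shock genes had 7 of 27 with an interior summit (25.9%, 11.1 to 46.3), led by the chaperone genes AT3G09440 (12.2), HSP81-2 (7.39) and HSC70-1 (6.21), and 1 with a gene-end summit, HSP81-2 (2.71 at 7 bp).

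Genes of the elongation machinery itself had more gene-end than interior summits, 6 of 20 (30.0%, 11.9 to 54.3) and 2 of 20 (10.0%, 1.23 to 31.7), with intervals that overlap. The SPT16 gene had 2 gene-end summits, the stronger 9.64 at position 6601907 on chromosome 4, 4 bp inside an end, and no interior summit. TFIIS, whose protein rescues arrested RNAPII, scored 7.51 at 22 bp from an end and 5.19 in the interior, and NRPB1, the gene of the largest RNAPII subunit, 3.47 and 3.87. SPT42 (3.72), ELF8 (3.58) and GTB1 (2.57), genes of the SPT4, PAF1 complex and SPT6 proteins, had gene-end summits only. Of 11 genes of other histone chaperones, SGA2, also known as ASF1A, had a gene-end summit (3.52 at 48 bp) and 0 had an interior summit, with an exact interval of 0 to 28.5% and a limit of 27.3% by 3 counts.

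**Figure D5:**
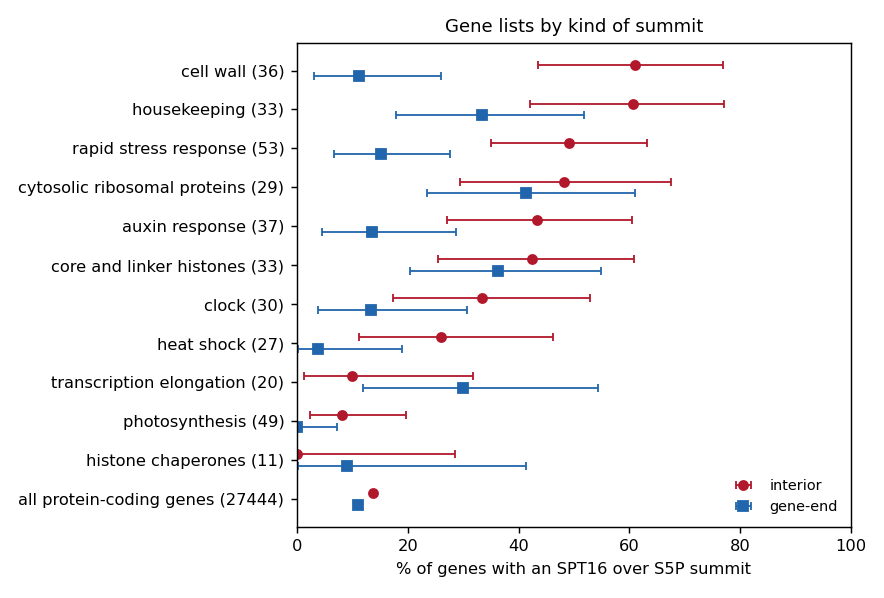
Share of the genes of each group (x axis, %) with an interior (circles) or a gene-end summit (squares) of SPT16 over S5P, with exact 95% intervals for counting error and the number of genes in brackets. Cell wall genes show 61.1% and 11.1%, the ribosomal protein genes found by name 48.3% and 41.4%, and all genes, in the bottom row, 13.7% and 11.0%.

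Remote summits lay a median of 707 bp from the nearest protein-coding gene end. Of the 336, 127 (37.8%, 32.6 to 43.2) were inside another gene of the table, among them 34 in long noncoding RNA genes, 24 in snoRNA genes and 22 in transcribed pseudogenes. Of the gene-end summits outside genes, 25 of 1022 (2.45%, 1.59 to 3.59) were. The share of bases that such other genes cover was not computed for either class, so these shares have no background. The highest remote scores were 25.6 at position 11416930 on chromosome 4, 1269 bp from MYB102 and in the transcribed pseudogene AT4G21437, and 25.2 at position 21425275 on chromosome 1, 206 bp from AT1G57850 and in the transcribed pseudogene AT1G57840. The third, 22.2 at position 11650481 on chromosome 1, lay 846 bp from GulLO1. The next were 20.8 at 3004 bp from AT3G60940, in the pseudogene AT3G60935, and 19.9 at 559 bp from AT3G07290, in the transcribed pseudogene AT3G07280.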

How the data were processed

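The deposited lists hold 1 summit per line with a score, the −log10 of the q-value, written by the authors' peak caller; the lowest score of the SPT16 over S5P list, 2.00, corresponds to a q threshold of 0.01. The submitters' processing notes name MACS3, Bowtie2, deepTools, SAMtools 1.16.1 and Trimmomatic 0.39, with the build TAIR10. Calling settings and the pooling of libraries are not given in those sources.

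Summits were assigned to genes with Python 3.11.15, pandas 2.3.3 and numpy 2.4.6, and exact intervals came from scipy 1.17.1. The class assignment was tested on simulated summits at known places. TAIR10.1 gene ends were used with TAIR10 positions: 14.9% of summits lay within 50 bp of a gene end unshifted, against 5.21% to 7.59% after shifts of 200 and 500 bp either way. The wider measures moved less: the gene-end share was 32.2% unshifted, against 29.9% to 30.4% at 200 bp, and the share in genes 81.6%, against 84.5% to 85.5%. No gene coordinate from that table is printed. The planned split into gene starts and ends, and promoter motifs, needed strand and sequence and were not analysed here.

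Genes were named by rule: the 12 highest per class, the 5 with the highest lower score of both classes, the 5 with the most summits, the 5 highest remote summits, and up to 4 per group and class, with members that carry both classes or share a summit added after their values were seen. Of the gene group symbols, 5 histone names could not be matched, and 9 organellar ribosomal protein genes were left out. The summits, gene groups and classes were chosen with earlier results of these data known.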

Additional observations from a re-analysis of the deposited data

How the results depend on the processing

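No paired analysis was possible because the lists pool their libraries; for the same reason no library could be left out, and depth limits are unknown. The share at gene starts was not run, since strand was not used here. Over 10 results and 55 alternatives, 23 stayed within the 95% interval of the value reported. All 10 shifts of positions by 10 bp did so.

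The window at gene ends moved the class shares most. With windows of 100, 300 and 500 bp, the interior share was 68.6%, 55.1% and 33.9%, the gene-end share 24.2%, 41.2% and 63.4%, and the outside share of gene-end summits 46.0%, 35.6% and 24.7%; the window of 500 bp takes in the interior group at 301 to 500 bp. At scores of at least 5 and 10 these shares were 61.1% and 67.5%, 33.5% and 27.0%, and 49.9% and 46.5%. With all genes of the table, the gene-end share was 35.4% and its outside share 40.3%.

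The share of interior summits near SSRP1 over S2P was 25.3% within 50 bp, 55.1% within 250 bp, and 48.98% and 58.7% at scores of at least 5 and 10. For gene-end summits it was 2.81%, 5.92% and, at scores of at least 10, 8.81%, and 8.20% with all genes. In each of these alternatives the interior share stayed above the gene-end share. That order is partly set by the mostly interior make-up of the SSRP1 list.

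The opposite-side share was 88.4% in genes of at least 2000 bp and 80.6% with a window of 300 bp, both chosen after the data were seen. The median interior score was 5.19 with the strongest summit per gene and 4.19 with a window of 500 bp, and the median gene-end score 5.05 with the latter. The interior median, 4.63, was below the gene-end median, 4.85, and this order turned round, 5.19 and 4.80, with the strongest summits. Median gene length was 2611 bp for interior summits with a window of 500 bp and 2400 bp for gene-end summits with a window of 100 bp. Causes were not tested.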
